A study of Homo sapiens with 12 samples.

Results

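HEK293 cells depleted of U2SURP were compared directly with HEK293 cells depleted of CHERP, using the 3 libraries of each knockdown and none of the control libraries. These 6 of the 12 libraries of the series were chosen by their siRNA label. U2SURP knockdown cells received SMARTpool ON-TARGETplus U2SURP siRNA and CHERP knockdown cells SMARTpool ON-TARGETplus CHERP siRNA. The remaining libraries, 3 with an RBM17 siRNA pool and 3 with a non-targeting control siRNA, are given as levels beside single genes and entered only an alternative fit over all 4 groups. The labels name HEK293, a human embryonic kidney line, as the source, and its SV40 large T antigen derivative HEK293T in the cell line field, at passage 10 in every group. The labels do not state whether the 3 libraries of a knockdown are independent cultures, so the p-values reflect library-to-library spread that may be technical.

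U2SURP (SR140), CHERP and RBM17 (SPF45) are nuclear RNA-binding proteins that associate with each other and with the U2 small nuclear ribonucleoprotein, the particle that pairs with the branch site of an intron early in spliceosome assembly. CHERP was first described as a calcium homeostasis protein of the endoplasmic reticulum, and U2SURP and CHERP both carry an RNA polymerase II C-terminal-domain interaction module. Loss of such factors alters which splice sites are used, and transcripts spliced into unproductive forms can be removed by nonsense-mediated decay, so RNA levels of their target genes can shift. A direct contrast asks in which genes depletion of one partner differs from depletion of the other.

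Each library held between 274301499 and 320986785 counts. The first principal component of log2 CPM (counts scaled to library size) over the 6 libraries, with 73.8% of the variance, separated the groups, with U2SURP knockdown between -18.9 and -17.9 and CHERP knockdown between 15.8 and 19.9. On the second, with 11.9%, library 1 of each knockdown lay at 7.95 and 12.3 and the 4 others between -7.17 and -3.67. All 15 markers of the HEK293 line passed the filter on low counts, and 12 of them were at 5 CPM or more. Passing alone says little about presence, as 9 of 14 blood markers passed too. Of the 15 genes 4 were called higher and 6 lower in U2SURP knockdown (66.7%). Of 14 blood markers HBB was at 0 in all 6 libraries and the summed level ran from 8.44 to 9.93 CPM in U2SURP knockdown and from 9.15 to 10.96 CPM in CHERP knockdown. Epithelial markers summed to between 111.5 and 119 CPM and between 112.7 and 122.5 CPM. Of the tested members 1 of 9 blood markers and 3 of 9 epithelial markers were called, each lower in U2SURP knockdown, and the part of such cells was not tested. The epithelial count was 1 without U2SURP knockdown library 3, CHERP knockdown library 2 or CHERP knockdown library 3, and 2 blood markers were called higher without CHERP knockdown library 1.

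Of 27621 genes tested, 8957 were called at an adjusted p under 0.05, which is 32.4% of them. In U2SURP knockdown 4675 (16.9%) were higher and 4282 (15.5%) lower than in CHERP knockdown. The differences were mostly small, with 6476 of the called genes (72.3%) under 1.5-fold and 913 at 2-fold or more, 358 of them higher and 555 lower in U2SURP knockdown. Libraries of the groups did not overlap in 12231 genes, among them 8684 of the 8957 called. Separation of the groups beside a called gene therefore adds little to the call. Among protein-coding genes of at least 5 CPM, where most of the genes named here lie, the share called was 48.3% of 10871, with 28.2% higher and 20.1% lower. These shares are the background against which the counts of each gene group are set. The median log2 fold change, always U2SURP minus CHERP knockdown, was -0.01 over all genes and 0.02 over that protein-coding group.

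**Figure D1:**
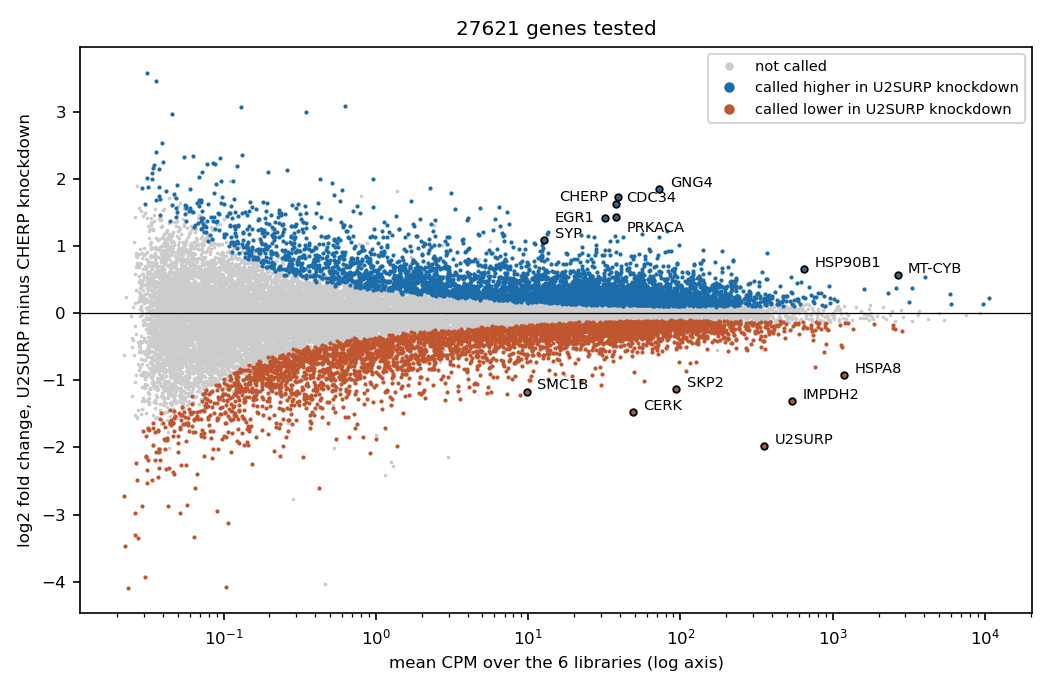
Log2 fold change (U2SURP minus CHERP knockdown) against mean CPM over the 6 libraries (log axis) for the 27621 genes tested; blue points were called higher and orange points lower in U2SURP knockdown, grey points were not called, and circles mark named genes. Most called genes lie close to the line at 0, and CERK, IMPDH2, SKP2, GNG4, CDC34 and PRKACA stand far from it at levels where most genes differ little.

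The siRNA targets separated the groups in opposite directions. U2SURP (ENSG00000163714, chr3:142964497-143060546, plus strand) stood at 149, 144.2 and 137.8 CPM in U2SURP knockdown and at 521.5, 562.9 and 604.2 CPM in CHERP knockdown (log2 -1.97 ± 0.055 SE, adjusted p = 2.948e-11). CHERP (ENSG00000085872, chr19:16517889-16542530, minus strand) stood at 58.39, 60.69 and 61.34 CPM against 18.79, 17.91 and 17.22 CPM (1.74 ± 0.047, adjusted p = 2.948e-11). Each target was thus low only in the 3 libraries of its own siRNA, with no overlap, and the control means were 471 CPM for U2SURP and 61.3 CPM for CHERP. RBM17 (chr10:6088987-6117457, plus strand), the third member, overlapped between groups, at 121.9, 121 and 123.3 CPM against 119.1, 122.2 and 127.3 CPM (-0.01 ± 0.04, adjusted p = 0.856), and its sign turned without CHERP knockdown library 3 (0.0182, adjusted p = 0.8145).

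**Figure D2:**
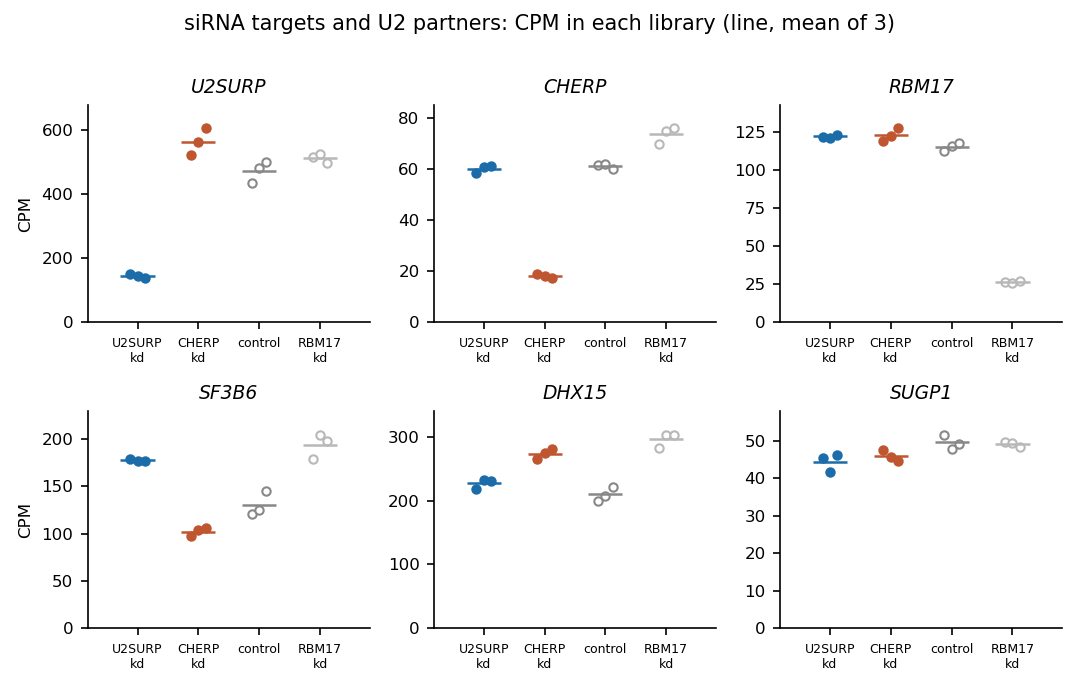
CPM in each library (points) and mean of 3 (line) for the 3 siRNA targets and for SF3B6, DHX15 and SUGP1, by group (kd, knockdown); filled points are the 2 groups compared and open points the control and RBM17 knockdown libraries. U2SURP and CHERP are low only in their own knockdown, RBM17 overlaps between both, and SF3B6 is higher in all 3 U2SURP knockdown libraries than in any CHERP knockdown library.

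Within the U2 particle 1 subunit stood apart. SF3B6 (p14), the SF3b subunit that crosslinks near the branch-site adenosine, was at 179.3, 177.1 and 177 CPM in U2SURP knockdown and at 97.48, 103.5 and 105.5 CPM in CHERP knockdown (0.80 ± 0.042, adjusted p = 1.867e-08). The groups did not overlap, and the control mean lay between them at 130 CPM. SNRPA1, the U2 A' protein, was higher in U2SURP knockdown (144 against 114 CPM, 0.34) and the SF3b scaffold subunit SF3B3 was lower (670 against 774 CPM, -0.21). Of 20 U2 genes 5 were higher and 5 lower (8 lower with offsets for GC content and length, or with protein-coding genes alone), with a median of -0.01. Among 27 genes of proteins reported to bind or act beside U2SURP, CHERP or RBM17, the targets included, 10 were higher and 4 lower (median 0.083). The higher ones include CHERP and the lower ones U2SURP, whose calls follow from the siRNAs that define the groups. With both targets counted 51.9% were called, near the 48.3% of protein-coding genes of at least 5 CPM. DHX15, the helicase that disassembles spliceosomes, was lower in U2SURP knockdown (227 against 274 CPM, -0.27 ± 0.042), as was the G-patch protein SUGP2 (-0.28), while the polymerase-binding protein RPRD1B was higher (66.6 against 48.4 CPM, 0.46 ± 0.045). SUGP1, a G-patch partner of SF3B1, did not pass the threshold (-0.05 ± 0.049, adjusted p = 0.434).

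Other splicing factors were called in both directions, at shares near or under the 48.3% of protein-coding genes of at least 5 CPM. The shares were 40.0% of other spliceosome genes, 52.9% of SR proteins, 42.3% of hnRNP genes and 38.5% of splicing kinases. RBM25, a regulator of splice-site choice, was at 222, 218.3 and 230.9 CPM in U2SURP knockdown against 302.4, 326.3 and 350.9 CPM in CHERP knockdown (-0.55 ± 0.052, adjusted p = 3.202e-06), with the control mean at 339 CPM. Of 50 other spliceosome genes 12 were higher and 8 lower, and the lower count was 5 without U2SURP knockdown library 1 and 4 without CHERP knockdown library 2, and 14 with offsets for GC content and length. PPIL1 (0.30), BUD31 (0.34) and the U5 GTPase EFTUD2 (0.26) were among the higher ones. Of 17 SR proteins, which bind exonic enhancers, 2 were higher and 7 lower (median -0.08), the higher count being 4 without CHERP knockdown library 3 and 1 when any other library except U2SURP knockdown library 1 was left out. Among the lower ones were SRSF8 (-0.32), SRSF4 (-0.26) and SRSF9 (-0.23), and SRSF6 was higher (0.25). For 26 hnRNP genes the counts were 5 and 6 (8 higher with those offsets), with HNRNPA0 (-0.41) and HNRNPF (-0.32) lower and RALY (0.39) higher. Kinases that phosphorylate splicing factors gave 2 higher and 3 lower of 13 (5 lower with the offsets), DYRK1B being lower (-0.45) and SRPK2 higher (0.22).

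In the nonsense-mediated decay and exon junction list 7 of 21 genes were higher in U2SURP knockdown and 2 lower. The 42.9% called in all lay under the 48.3% of protein-coding genes of at least 5 CPM. The higher count was 4 without U2SURP knockdown library 3, without CHERP knockdown library 2 or without CHERP knockdown library 3. With offsets for GC content and length 4 were higher and 4 lower. UPF3B, which links the exon junction complex to UPF2, stood at 101 against 69.1 CPM (0.55 ± 0.054) and SMG5, a decay adaptor, was also higher (0.41). Both are themselves known targets of the pathway. SnoRNA host RNAs, many of them substrates of that decay route, were higher in 6 and lower in 3 of 19 tested, SNHG12 (0.39) and SNHG15 (0.30) against SNHG16 (-0.31).

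The largest difference among protein-coding genes of at least 5 CPM, apart from U2SURP, was in GNG4 (chr1:235547687-235650754, minus strand), a G protein gamma subunit of neural tissue. It was at 112.1, 116.7 and 113.7 CPM in U2SURP knockdown and at 33.7, 31.56 and 29 CPM in CHERP knockdown (1.86 ± 0.052, adjusted p = 2.948e-11). The control mean of 64.1 CPM lay between the groups, so GNG4 was above control level in one knockdown and below it in the other, and it overlaps 2 genes of the opposite strand. In the list of G protein beta and gamma subunits 6 of 15 were higher and 2 lower. The lower count was 1 without U2SURP knockdown library 1 or 3 or CHERP knockdown library 2 or 3, and 4 with the DESeq2 Wald test, with protein-coding genes alone or with the GC and length offsets. The beta subunits GNB2 (85 against 52.2 CPM, 0.70) and GNB1 (0.42) were among the higher ones.

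CDC34 (chr19:531712-542092, plus strand) and UBE2R2 encode the closely related ubiquitin-conjugating enzymes that serve cullin-RING ligases such as SCF. CDC34 stood at 58.79, 55.33 and 56.09 CPM in U2SURP knockdown and at 18.62, 18.86 and 17.67 CPM in CHERP knockdown (1.62 ± 0.046, adjusted p = 3.137e-11). UBE2R2 was at 76.96, 80.43 and 75 CPM against 34.09, 34.39 and 34.09 CPM (1.18 ± 0.042, adjusted p = 6.038e-10). Both enzymes were low in all 3 CHERP knockdown libraries, with control means of 53 CPM and 57.2 CPM. SKP2 (chr5:36151989-36184319, plus strand), the F-box receptor that directs SCF to the cell-cycle inhibitor p27, went the opposite way, with 58.06, 60.26 and 58.74 CPM in U2SURP knockdown against 115.4, 133.9 and 138.4 CPM (-1.13 ± 0.059, adjusted p = 1.598e-08) and a control mean of 103 CPM. CDKN1B, which encodes p27, was lower in U2SURP knockdown too (33.6 against 42.7 CPM, -0.35 ± 0.062), and CKS1B, the SKP2 cofactor, was higher (118 against 91.3 CPM, 0.37). Over 22 genes of SCF and p27 control 8 were higher and 8 lower (5 lower without U2SURP knockdown library 2).

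In the protein kinase A list a catalytic and an anchoring gene had large differences. PRKACA (chr19:14091688-14118084, minus strand), the main catalytic subunit, was at 56.85, 54.18 and 54.15 CPM in U2SURP knockdown and at 21.99, 20.12 and 19 CPM in CHERP knockdown (1.43 ± 0.054, adjusted p = 7.842e-10), with a control mean of 46.4 CPM. AKAP12, an anchoring protein that holds the kinase at the membrane, stood at 239.2, 251.9 and 246.2 CPM against 132.9, 126.5 and 126.2 CPM (0.93 ± 0.041, adjusted p = 2.535e-09). The regulatory subunit PRKAR1A, which inhibits the catalytic subunits, was lower in U2SURP knockdown (87.7 against 117 CPM, -0.42). Another anchoring gene, AKAP8, was also called lower (-0.13), a call lost without U2SURP knockdown library 2 or 3 or CHERP knockdown library 2. Of 24 genes in the protein kinase A and adenylyl cyclase list 7 were higher and 4 lower, 45.8% in all, under the 48.3% of protein-coding genes of at least 5 CPM. The lower count was 2 without U2SURP knockdown library 3 or CHERP knockdown library 2, and 8 with offsets for GC content and length. In protein kinase C 5 of 11 were higher and 3 lower, and PRKCB, the beta isoform (chr16:23835946-24220611, plus strand), was at 8.66, 8.50 and 7.63 CPM against 3.74, 3.50 and 3.20 CPM (1.25 ± 0.082, adjusted p = 1.13e-07).

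**Figure D3:**
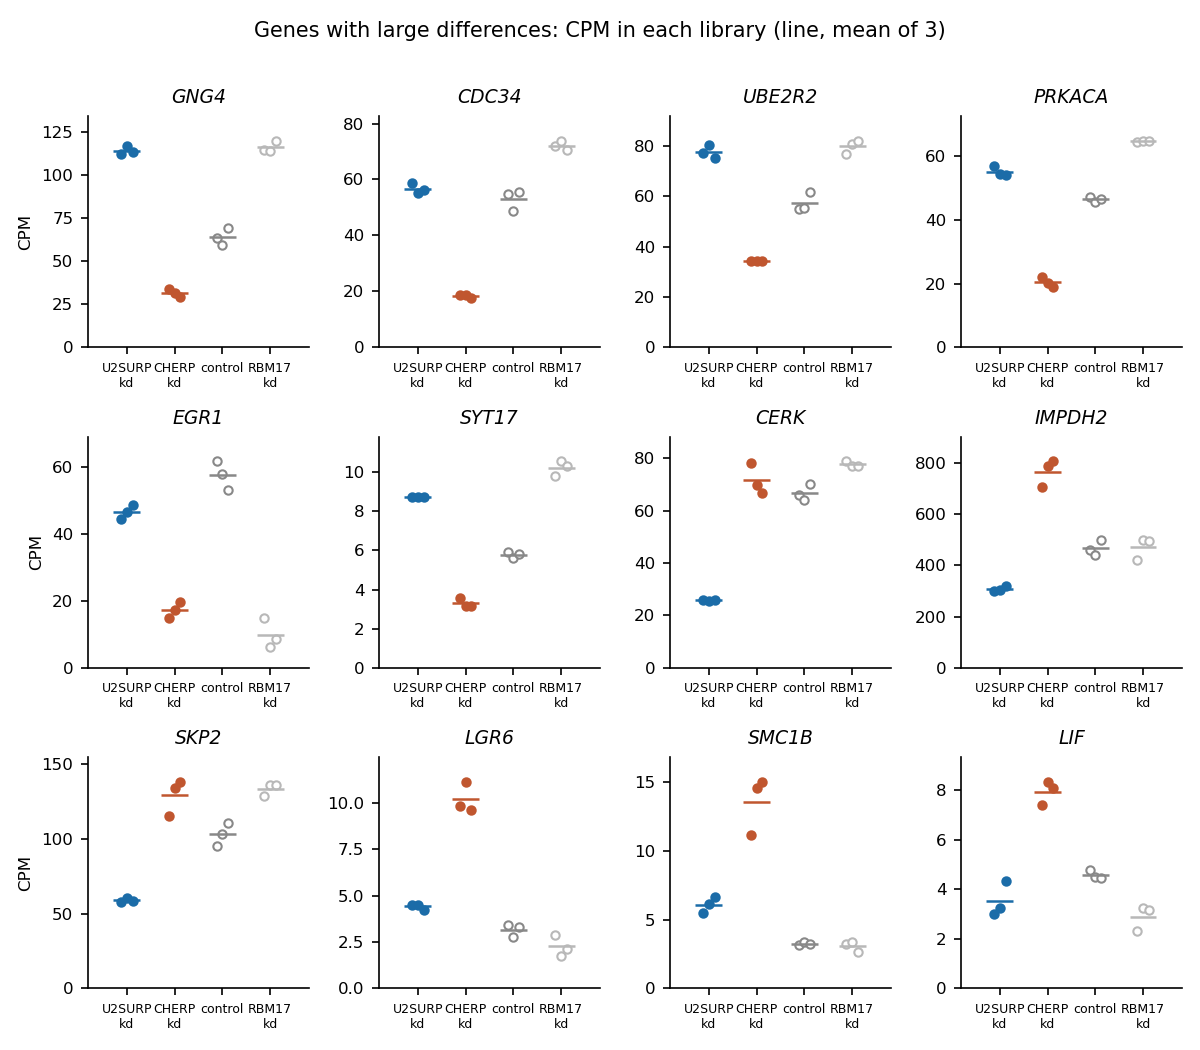
CPM in each library (points) and mean of 3 (line) for 12 genes with large differences, by group (kd, knockdown); axes start at 0, and control and RBM17 knockdown libraries are open points. In each panel the U2SURP and CHERP knockdown libraries do not overlap: GNG4, CDC34, UBE2R2, PRKACA, EGR1 and SYT17 are higher in U2SURP knockdown, and CERK, IMPDH2, SKP2, LGR6, SMC1B and LIF are lower. All but UBE2R2 were named by a rule that requires no overlap.

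Sphingolipid metabolism held a large difference in each direction. CERK (chr22:46684411-46738261, minus strand), the kinase that makes ceramide 1-phosphate, was at 25.8, 25.49 and 26.01 CPM in U2SURP knockdown and at 78.11, 70.03 and 66.71 CPM in CHERP knockdown (-1.48 ± 0.054, adjusted p = 6.622e-10). SGPL1, the lyase that breaks down sphingosine 1-phosphate, was at 130.1, 133.5 and 126.5 CPM against 71.05, 62.15 and 59.61 CPM (1.01 ± 0.056, adjusted p = 2.839e-08). Control means were 66.8 CPM for CERK, near the CHERP knockdown level, and 135 CPM for SGPL1, near the U2SURP knockdown level. The ceramide synthases CERS1 (0.74) and CERS5 (0.35) were higher and the glucosylceramide synthase UGCG was lower in U2SURP knockdown (-0.46), and in the whole list of 28 enzymes 11 were higher and 4 lower (7 lower with protein-coding genes alone or with offsets for GC content and length).

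IMPDH2 (chr3:49024325-49029408, minus strand), the rate-limiting enzyme of guanine nucleotide synthesis in growing cells, stood at 301.2, 305.9 and 321.6 CPM in U2SURP knockdown and at 706.6, 787.8 and 807.3 CPM in CHERP knockdown (-1.31 ± 0.053, adjusted p = 1.351e-09). The control mean was 467 CPM, between both groups. Its isoenzyme IMPDH1 was also lower in U2SURP knockdown, at 82.2 against 117 CPM (-0.51 ± 0.038). Of 20 purine synthesis genes 4 were higher and 4 lower, 40.0% in all, under the 48.3% of protein-coding genes of at least 5 CPM. The salvage enzymes APRT (0.35) and HPRT1 (-0.28) lay on opposite sides.

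Among the remaining large differences, the caveolar protein CAVIN4 was at 9.80, 9.84 and 9.32 CPM in U2SURP knockdown against 3.76, 2.81 and 3.12 CPM in CHERP knockdown (1.58 ± 0.094, adjusted p = 5.576e-08). The neuronal pentraxin receptor NPTXR was at 11.4, 10.7 and 10.5 CPM against 4.46, 3.50 and 3.40 CPM (1.52 ± 0.094, adjusted p = 7.072e-08). SYT17, a synaptotagmin of membrane traffic, stood at 8.72, 8.73 and 8.73 CPM against 3.58, 3.14 and 3.17 CPM (1.40 ± 0.075, adjusted p = 2.11e-08). These 3 genes were named by a rule that requires no overlap between groups, so their separation is no further result. Control means were 10.9, 13.9 and 5.78 CPM.

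On the other side, the R-spondin receptor LGR6 was at 4.50, 4.51 and 4.24 CPM in U2SURP knockdown and at 9.85, 11.1 and 9.63 CPM in CHERP knockdown (-1.21 ± 0.074, adjusted p = 6.588e-08). LIF, a cytokine that signals through gp130, was at 3.01, 3.24 and 4.34 CPM against 7.39, 8.35 and 8.11 CPM (-1.18 ± 0.11, adjusted p = 4.319e-06). SMC1B, the meiotic cohesin subunit, stood at 5.48, 6.10 and 6.60 CPM against 11.1, 14.6 and 15.0 CPM (-1.17 ± 0.11). For all 3 the CHERP knockdown libraries were above the control means of 3.15 CPM for LGR6, 4.59 CPM for LIF and 3.25 CPM for SMC1B. SPOCK2, a secreted proteoglycan, was lower in U2SURP knockdown as well (3.46 against 7.38 CPM, -1.10), and so was SKIDA1 (5.32 against 12.4 CPM, -1.22), which overlaps MLLT10 on the opposite strand.

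Of the chaperone genes called, those of the endoplasmic reticulum list were higher in U2SURP knockdown, and those of the heat shock list, which covers cytosol, nucleus and mitochondria, were lower except AHSA1. The first are induced by the unfolded protein response through the endoplasmic reticulum stress element, written here as CCAAT and CCACG spaced by 9 bases, and the second by HSF1 through the heat shock element, written as GAA, TTC and GAA (or TTC, GAA and TTC) with 2 bases between neighbours. Both strands were searched in the RefSeq promoter table (GRCh38.p14), 250 bases before to 50 after each start. The 250 bases before the start are shown for 3 called chaperone genes chosen because they hold a match, 5′ to 3′ on the strand of the gene, with matches to either motif in capitals.
HSP90B1 (chr12:103930160-103930409, plus strand): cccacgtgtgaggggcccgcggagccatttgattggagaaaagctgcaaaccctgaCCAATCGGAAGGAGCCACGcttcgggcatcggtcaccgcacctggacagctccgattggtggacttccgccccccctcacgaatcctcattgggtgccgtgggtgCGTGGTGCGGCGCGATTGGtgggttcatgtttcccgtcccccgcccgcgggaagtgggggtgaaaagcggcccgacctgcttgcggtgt
HSPA5 (chr9:125241344-125241593, minus strand): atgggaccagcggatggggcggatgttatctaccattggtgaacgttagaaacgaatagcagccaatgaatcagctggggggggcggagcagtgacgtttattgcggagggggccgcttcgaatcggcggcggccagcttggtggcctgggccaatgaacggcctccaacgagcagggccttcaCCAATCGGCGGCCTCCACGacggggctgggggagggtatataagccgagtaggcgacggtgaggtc
HSPA8 (chr11:123062137-123062386, minus strand): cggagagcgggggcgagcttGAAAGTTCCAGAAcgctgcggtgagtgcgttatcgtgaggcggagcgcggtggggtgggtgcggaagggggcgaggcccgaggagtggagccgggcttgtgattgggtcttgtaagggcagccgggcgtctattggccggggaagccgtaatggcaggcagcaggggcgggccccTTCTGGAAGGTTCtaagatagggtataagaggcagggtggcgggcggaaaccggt
In HSP90B1 and HSPA5 the capitals mark stress elements, and in HSPA8 heat shock elements. The first motif was in a promoter of 7 of 25 genes of the endoplasmic reticulum list (CALR, CANX, CRELD2, HSP90B1, HSPA5, PDIA6 and XBP1), and 4 of the 7 genes were called. It was in 27 of all 35116 promoters (0.0769%). Lists were counted by gene and the whole by promoter, and a gene can have several promoters, so these shares are not like for like. The second motif, searched after the results were seen, was in a promoter of 6 of 18 heat shock genes (CHORDC1, DNAJA1, HSP90AA1, HSP90AB1, HSPA8 and HSPD1), and 5 of the 6 were called. It was in 172 of all promoters (0.49%). HYOU1, FKBP2, PDIA4 and DNAJB11, which each differed more than HSPA5, and DNAJB1 were not among the matches. A match describes the letters alone and is no evidence of binding.

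Of 26 endoplasmic reticulum chaperone and unfolded protein response genes 16 were higher in U2SURP knockdown and 0 lower (2 lower with offsets for GC content and length), with a median of 0.258. HYOU1, an exchange factor for BiP, was at 278.3, 282 and 284.2 CPM in U2SURP knockdown and at 165.7, 158.6 and 160.3 CPM in CHERP knockdown (0.80 ± 0.038, adjusted p = 8.179e-09). HSP90B1 (GRP94), whose promoter above holds 2 stress elements, was at 773.3, 808.1 and 792.1 CPM against 463.8, 500.4 and 532.9 CPM (0.66 ± 0.05, adjusted p = 4.275e-07). HSPA5 (BiP), the main chaperone of the compartment, was at 653.7, 678.3 and 688.8 CPM against 485.9, 499 and 494.4 CPM (0.45 ± 0.04, adjusted p = 1.78e-06). None of these overlapped, and in each the control mean was higher than both groups, at 345 CPM for HYOU1, 1264 CPM for HSP90B1 and 835 CPM for HSPA5. The disulfide isomerase PDIA4 (159 against 108 CPM, 0.56), the prolyl isomerase FKBP2 (15.6 against 8.62 CPM, 0.86), DNAJB11 (0.54) and the degradation factor HERPUD1 (0.41) were also higher. The transcription factor XBP1 (-0.03, adjusted p = 0.653), the ligase SYVN1 (-0.09, adjusted p = 0.259) and the lectin chaperone CANX (0.13, adjusted p = 0.092) did not pass the threshold.

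Of 20 heat shock genes 11 were lower in U2SURP knockdown and 1, AHSA1 (0.20), was higher, with a median of -0.16. HSPA8 (Hsc70), the constitutive Hsp70 of the cytosol whose promoter is shown above, was at 790.8, 812.5 and 845.9 CPM in U2SURP knockdown and at 1428, 1524 and 1693 CPM in CHERP knockdown (-0.93 ± 0.058, adjusted p = 7.186e-08). Its cochaperone DNAJB1 was at 36.56, 33.58 and 35.45 CPM against 64.25, 63.72 and 65.7 CPM (-0.88 ± 0.045, adjusted p = 1.402e-08). HSP90AB1, the constitutive cytosolic Hsp90, was at 907.3, 928.5 and 1004 CPM against 1225, 1363 and 1360 CPM (-0.48 ± 0.053, adjusted p = 1.2e-05). All 3 genes were lower in every U2SURP knockdown library than in any CHERP knockdown library, and 8684 of the 8957 called genes were likewise without overlap. The mitochondrial chaperonin HSPD1 was lower too (642 against 846 CPM, -0.40), while the stress-inducible HSPA1A (-0.06, adjusted p = 0.848) and HSF1 (0.01) did not pass the threshold.

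**Figure D4:**
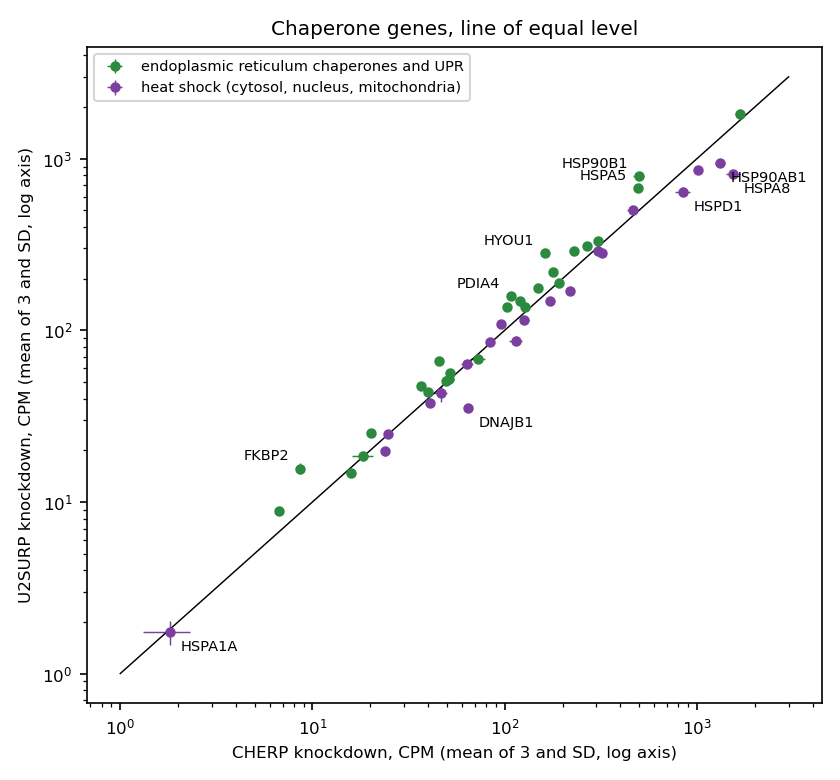
Mean CPM in U2SURP knockdown (vertical, log axis) against mean CPM in CHERP knockdown (horizontal, log axis) for the endoplasmic reticulum list (green) and the heat shock list (purple), with SD over 3 libraries as bars and the line of equal level. HYOU1, HSP90B1 and HSPA5 lie above the line, and HSPA8, HSP90AB1 and DNAJB1 below it.

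The transcription factor ATF4, the effector of the integrated stress response, was at 565.8, 524.5 and 579.3 CPM in U2SURP knockdown and at 944.8, 957 and 996.1 CPM in CHERP knockdown (-0.80 ± 0.047, adjusted p = 4.564e-08). The control mean was 853 CPM. Several genes that ATF4 is known to induce lay the other way. DDIT3 (CHOP), which overlaps MARS and MBD6 on the opposite strand, was at 42.1, 38.79 and 40.86 CPM against 26.02, 28.12 and 26.97 CPM (0.58 ± 0.049, adjusted p = 1.021e-06), DDIT4 averaged 72.3 against 43.5 CPM (0.73) and the pseudokinase TRIB3 113 against 71 CPM (0.67). CTH, an enzyme of cysteine synthesis, was lower with ATF4 (66.1 against 94 CPM, -0.51), and ASNS did not pass the threshold (0.13, adjusted p = 0.067). Over 33 genes of the list 13 were higher and 8 lower, with a median of 0.039. The ATF4 element, searched as TGATG, any base, AA and any base, was in a promoter of 7 of 27 of its genes. Counted by promoter instead, it was in 3.61% of all. Of 20 aminoacyl-tRNA synthetases, several of which ATF4 induces, 4 were higher and 6 lower, with GARS at 294 against 424 CPM (-0.53); the lower count was 3 without U2SURP knockdown library 1, 2 without CHERP knockdown library 2 and 3 without CHERP knockdown library 3.

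Immediate-early genes, transcribed within minutes of a growth signal by SRF and its partners, were higher in U2SURP knockdown in 17 of 28 cases and lower in 1, IER5 (-0.24), with a median of 0.528; 2 were lower without CHERP knockdown library 1 and 3 with offsets for GC content and length. SRF binds the CArG box, and the 250 bases before the start of EGR1, the member with the largest difference, hold a pair of them, in capitals, on the same build.
EGR1 (chr5:138465229-138465478, plus strand): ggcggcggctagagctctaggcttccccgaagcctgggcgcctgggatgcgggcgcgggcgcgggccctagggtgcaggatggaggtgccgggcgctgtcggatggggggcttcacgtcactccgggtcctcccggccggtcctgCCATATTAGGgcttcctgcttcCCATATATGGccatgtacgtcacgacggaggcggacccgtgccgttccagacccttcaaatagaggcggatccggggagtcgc
EGR1 was at 44.5, 46.39 and 48.64 CPM in U2SURP knockdown and at 15.01, 17.15 and 19.69 CPM in CHERP knockdown (1.43 ± 0.081, adjusted p = 9.163e-08). ARC, a synaptic plasticity gene, was at 15.6, 13.2 and 15.5 CPM against 6.21, 7.30 and 7.89 CPM (1.05 ± 0.09, adjusted p = 1.21e-06). Neither overlapped, which for EGR1 the naming rule requires, and control means were higher than both groups, 57.6 CPM for EGR1 and 30.4 CPM for ARC. EGR3 was higher at a lower level (2.00 against 0.833 CPM, 1.26), FOS less clearly (11.2 ± 2.11 against 6.88 ± 1.4 CPM, 0.70, adjusted p = 0.0297) and KLF10 at 75.2 against 51.2 CPM (0.55). CArG boxes, also searched after the results were seen, were in a promoter of 3 of 21 genes of the list (EGR1, EGR2 and SRF). Counted by promoter instead, they were in 1.29% of all.

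ERK signalling induces feedback inhibitors and PEA3 factors, in part by releasing the repressor CIC from their promoters. Of 19 genes in that list 11 were higher and 4 lower in U2SURP knockdown, with a median of 0.309. ETV5 was at 6.34, 6.46 and 6.81 CPM in U2SURP knockdown and at 2.08, 2.81 and 3.68 CPM in CHERP knockdown (1.19 ± 0.16, adjusted p = 3.188e-04), and its relative ETV4 at 2.21 against 1.17 CPM (0.92). The inhibitors SPRED2 (17.7 against 10.6 CPM, 0.73), SPRY4 (1.41 against 0.675 CPM, 1.05) and DUSP4 (3.15 against 1.77 CPM, 0.83) were higher as well. CIC itself was lower, at 68.11, 60.81 and 60.94 CPM against 85.41, 74.06 and 70.81 CPM (-0.28 ± 0.064, adjusted p = 0.00405), and CCND1, the G1 cyclin, was lower too (-0.22).

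BTG2, an antiproliferative factor, was at 24.93, 26.86 and 30.44 CPM in U2SURP knockdown and at 39.95, 44.76 and 49.49 CPM in CHERP knockdown (-0.71 ± 0.084, adjusted p = 6.155e-05). BAX, a mediator of apoptosis, averaged 46.1 ± 4.1 against 65.7 ± 1.95 CPM (-0.51 ± 0.057) and the DNA repair gene DDB2 36.2 ± 2.26 against 53.1 ± 5.16 CPM (-0.55 ± 0.066). These 3 genes did not overlap between groups, whereas CDKN1A (p21) did although it was called (-0.28 ± 0.073, adjusted p = 0.0104). MDM2, a ubiquitin ligase, varied widely within groups, at 118.8, 153.5 and 151.5 CPM against 165.9, 216.1 and 236.6 CPM, and did not pass the threshold (-0.55 ± 0.18, adjusted p = 0.0815). SESN2, a stress-induced sestrin, was higher in U2SURP knockdown (0.18).

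Genes of mitosis were lower in 21 of 43 cases and higher in 4 (median -0.16), by small amounts; 2 were higher without U2SURP knockdown library 3. ANLN, a scaffold of the cleavage furrow, averaged 137 against 184 CPM (-0.42), TPX2, a spindle assembly factor, 200 against 248 CPM (-0.32) and PLK1 117 ± 0.802 against 145 ± 3.72 CPM (-0.31), while the kinetochore motor CENPE was higher (134 against 116 CPM, 0.21). MKI67, the proliferation marker, overlapped between groups and was not called (0.06 ± 0.044, adjusted p = 0.307). For DNA replication 5 of 42 were higher and 12 lower (19 lower without CHERP knockdown library 1). The 40.5% called in all lay under the 48.3% of protein-coding genes of at least 5 CPM. RPA1, which coats single-stranded DNA, was at 117.3, 124.9 and 125.8 CPM in U2SURP knockdown against 166.6, 180.4 and 182.8 CPM in CHERP knockdown (-0.53 ± 0.047), the licensing factor CDT1 at 297 against 396 CPM (-0.42), and the clamp-loader subunit RFC5 at 165 against 120 CPM (0.45). Among 18 cohesin genes 2 were higher and 7 lower, SMC1B by the most, and the cohesin regulator PDS5B stood at 120 against 153 CPM (-0.36).

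Clustered histone genes, most of whose mRNAs end in a stem-loop without a poly(A) tail, were lower in 19 of 45 tested members of 71 and higher in 1. HIST1H2BN was at 3.29, 3.49 and 3.02 CPM in U2SURP knockdown and at 7.24, 7.43 and 7.74 CPM in CHERP knockdown (-1.20 ± 0.078, adjusted p = 1.117e-07), HIST1H2BK at 9.84 against 17.6 CPM (-0.84) and HIST1H2AG at 2.13 against 4.77 CPM (-1.16). Poly(A) selection leaves little of such mRNAs, and reads of near-identical copies may be split, so single histone values are uncertain. HIST1H2BN also overlaps HIST1H2AL on the same strand and HIST1H2BPS2 on the opposite strand. The median of the 45 tested members was -0.40, and only 5 of them were at 5 CPM or more.

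Neuronal and synaptic genes, part of which HEK293 cells express, were higher in U2SURP knockdown in 23 of 51 cases and lower in 5, with a median of 0.274, GNG4 among the higher. SYP, the synaptic vesicle protein synaptophysin, was at 17.9, 17.3 and 17.0 CPM in U2SURP knockdown and at 9.32, 7.51 and 7.62 CPM in CHERP knockdown (1.09 ± 0.077, adjusted p = 1.901e-07). CPLX1, which clamps vesicle fusion, was at 1.40, 1.65 and 1.52 CPM against 0.429, 0.362 and 0.352 CPM (2.00 ± 0.14, adjusted p = 1.682e-07). NEFM, a neurofilament subunit, was at 226.1, 224.5 and 245 CPM against 136.7, 152.6 and 147.6 CPM (0.67 ± 0.05). No library of one group reached the range of the other in these genes, as in most called genes. The adhesion molecule L1CAM (3.53 against 1.34 CPM, 1.39), the granin SCG3 (0.938 against 0.261 CPM, 1.84) and the calcium channel CACNA1B (11.5 against 5.91 CPM, 0.95) were higher too, whereas SYN2, a synapsin, was lower (-0.40). The 4 others called lower were ENO2 (-0.35), ELAVL2 (-0.22) and, at low levels, STMN4 (0.105 against 0.217 CPM, -1.04) and the RNA-binding protein gene ELAVL3 (0.0511 against 0.192 CPM, -1.91 ± 0.36, adjusted p = 9.385e-04). REST, the repressor of many neuronal genes, was at 61.95, 62.19 and 56.67 CPM against 72.04, 71.22 and 75.32 CPM (-0.28 ± 0.047, adjusted p = 4.258e-04), and its corepressor RCOR2 was higher (10.9 against 7.38 CPM, 0.56). Of REST and its 13 tested partners 5 were higher and 1 lower, 42.9% beside the 48.3% of protein-coding genes of at least 5 CPM. The higher count lay between 2 and 5 when single libraries were left out (2 without U2SURP knockdown library 3 or CHERP knockdown library 2, 3 without U2SURP knockdown library 1 or CHERP knockdown library 3). With offsets for GC content and length 2 were higher and 4 lower, with protein-coding genes alone 3 were lower, and without U2SURP knockdown library 2 or CHERP knockdown library 1 2 were lower.

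Potassium channel genes with the symbol KCN were higher in 22 and lower in 8 of 79 (5 lower without U2SURP knockdown library 1 or 3). The 38.0% called in all stand beside 32.4% of all genes, and only 18 of the 79 were at 5 CPM or more. KCNC1, a channel that allows fast firing, stood at 15.7 against 8.21 CPM (0.93). Protocadherins, cell-surface adhesion proteins of neurons, gave 15 higher and 5 lower of 44 tested, mostly under 1 CPM; the higher count was 8 without U2SURP knockdown library 2 and 9 without U2SURP knockdown library 3, and the lower count 3 without either or without CHERP knockdown library 1. PCDH1 (2.77 against 1.34 CPM, 1.04) and the beta-cluster gene PCDHB14 (0.726 against 0.337 CPM, 1.10) were higher, and the gamma-C genes PCDHGC3, PCDHGC4 and PCDHGC5 were lower (-0.35, -0.66 and -1.51). Members of a cluster share exons in part, so their reads can be ambiguous.

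Extracellular matrix genes were higher in U2SURP knockdown in 21 of 38 cases and lower in 7, with a median of 0.28. LAMA5, a basement membrane laminin chain that overlaps ADRM1 on the opposite strand, was at 214.7, 200.5 and 218.5 CPM in U2SURP knockdown and at 126.8, 127.3 and 119.9 CPM in CHERP knockdown (0.76 ± 0.044, adjusted p = 4.564e-08). COL4A2, a chain of type IV collagen, was at 152.2, 150.3 and 161.5 CPM against 87.87, 95.45 and 93.69 CPM (0.74 ± 0.046, adjusted p = 6.588e-08). COL18A1, a basement membrane collagen and proteoglycan, stood at 59.78, 57.74 and 58.08 CPM against 38.93, 39.7 and 38.15 CPM (0.59 ± 0.041). In all 3 the groups were apart and the control means higher than both, at 253, 244 and 113.3 CPM. The proteoglycan perlecan, HSPG2 (0.64), was also higher, and the proteoglycan VCAN (182 against 225 CPM, -0.31) and FBLN1 (-0.28) lower. Fibroblast markers are given beside this group because some are matrix genes. Summed over all 14 they ran from 292.6 to 321.3 CPM in U2SURP knockdown and from 393.1 to 466.5 CPM in CHERP knockdown, none was at 0, DCN, THY1, FAP and POSTN lay under 0.05 CPM, and of 10 tested 1 was higher (COL3A1) and 4 lower. VIM, an intermediate filament gene that HEK293 cells express, made up most of that sum, with 280 against 396 CPM (-0.50), and the part of such cells in the matrix result was not tested.

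Of 28 integrin and adhesion genes 12 were higher and 6 lower, and the lower count was 3 without U2SURP knockdown library 2, 2 without U2SURP knockdown library 3 and 3 without CHERP knockdown library 2 or 3. ITGB1, the common beta subunit of matrix receptors, averaged 142 ± 5.2 against 99 ± 5.1 CPM (0.51 ± 0.046), and the adhesion molecule CADM1 96 ± 3.4 against 58.5 ± 3.9 CPM (0.71 ± 0.051). HOX genes, which record positional identity, were lower in U2SURP knockdown in 22 of 38 cases and higher in 2, with a median of -0.29. HOXA13 was at 16.0, 14.9 and 14.7 CPM in U2SURP knockdown against 25.1, 26.0 and 24.6 CPM in CHERP knockdown (-0.73 ± 0.053, adjusted p = 2.44e-07), HOXA10 at 19.5 against 30.2 CPM (-0.63) and HOXA7 at 2.72 against 6.06 CPM (-1.16). HOXC4 (0.36) and HOXD13 (0.31) were the higher ones. Many HOX transcripts overlap within a cluster, and the family was grouped after the results were seen.

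**Figure D5:**
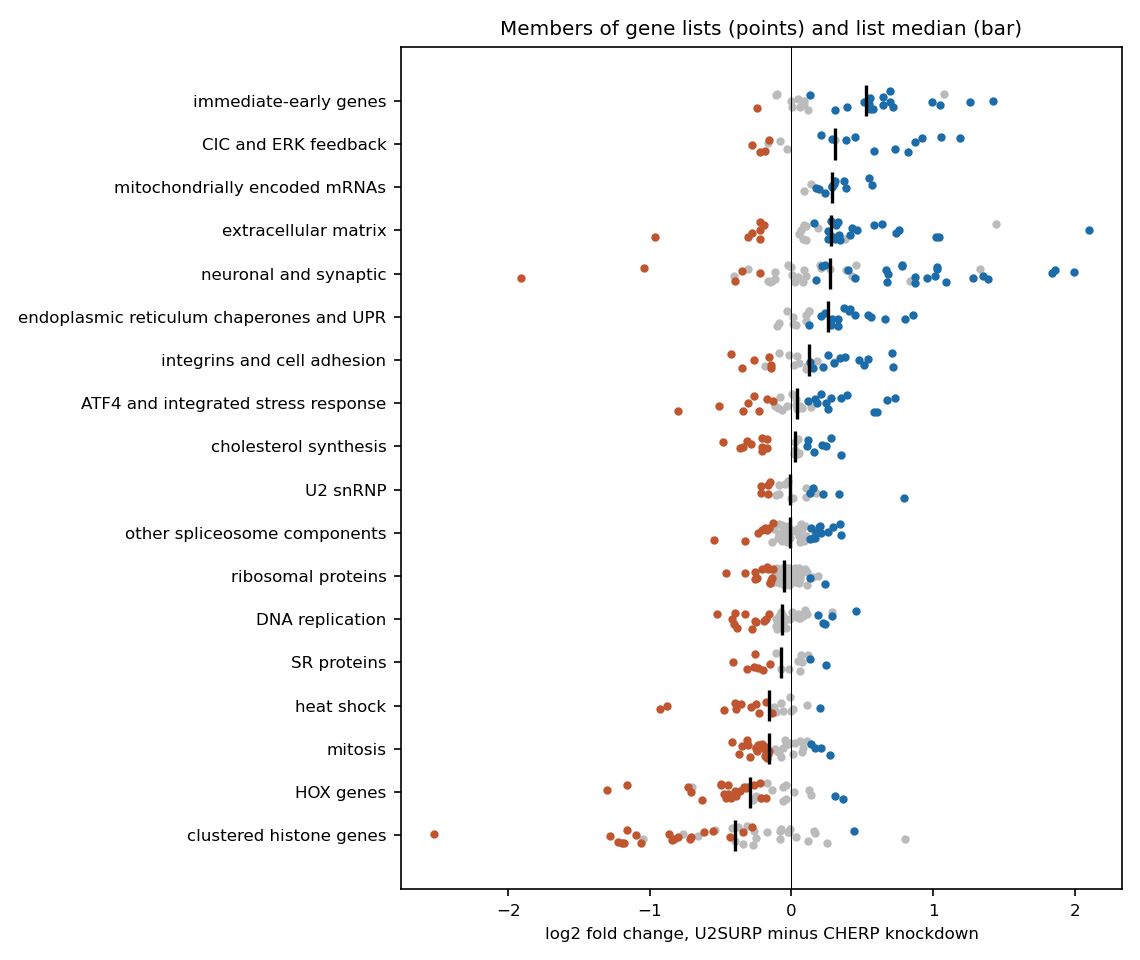
Log2 fold change (U2SURP minus CHERP knockdown) of each tested member (points) of 18 gene lists, with the list median as a black bar; blue members were called higher, orange members lower and grey members not called, and UPR stands for unfolded protein response. Immediate-early, matrix and endoplasmic reticulum chaperone genes lie mostly to the right, with medians of 0.528, 0.28 and 0.258, and heat shock genes, HOX and histone genes mostly to the left.

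Mitochondrially encoded mRNAs were higher in U2SURP knockdown in 11 of 13 cases and lower in 0, with a median of 0.289. MT-CYB, the cytochrome b of complex III, was at 3156, 3187 and 3212 CPM in U2SURP knockdown and at 2417, 2097 and 1933 CPM in CHERP knockdown (0.57 ± 0.063, adjusted p = 1.312e-05). MT-CO3, a core subunit of cytochrome oxidase, was at 4977, 4764 and 4643 CPM against 3737, 3093 and 3000 CPM (0.55). The control mean of MT-CYB was 4939 CPM, above both groups. Mitochondrially encoded genes together took 5.06 ± 0.104% of counts in U2SURP knockdown and 4.25 ± 0.326% in CHERP knockdown (SD, n = 3), which an exact two-sided permutation test cannot separate below p = 0.1, the smallest value 3 against 3 libraries allow and the value found. Nuclear copies of these genes can share their reads.

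Of 72 nuclear genes of oxidative phosphorylation 14 were higher and 20 lower (median -0.02), and the lower count was 13 without U2SURP knockdown library 2, CHERP knockdown library 2 or CHERP knockdown library 3, and 10 with all 4 groups in the fit. ATP5F1B, the catalytic beta subunit of ATP synthase, stood at 719.3, 719.2 and 737.4 CPM in U2SURP knockdown against 525.7, 521.2 and 517.8 CPM in CHERP knockdown (0.47 ± 0.038), and the complex I subunit NDUFB9 at 59.8 against 80.7 CPM (-0.44). Mitochondrial ribosomal protein genes were higher in 25 and lower in 12 of 78, the lower count falling to 6 without CHERP knockdown library 2 or 3 and to 7 without U2SURP knockdown library 1. Cytosolic ribosomal protein genes were called in 15 of 79 cases, 2 higher and 13 lower (median -0.06), 19.0%, below the background share. RPL9 averaged 763 against 1050 CPM (-0.46 ± 0.048), and the lower count depended on the libraries, with 22 without CHERP knockdown library 1, 6 without CHERP knockdown library 2 and 7 without U2SURP knockdown library 2 or CHERP knockdown library 3, and was 32 with GC and length offsets. Processed pseudogenes make single ribosomal values uncertain. Translation factors gave 11 higher and 7 lower of 43 (11 lower without CHERP knockdown library 1 or with offsets for GC content and length), with the initiation factor EIF3B at 382 against 275 CPM (0.47) and the helicase EIF4A2 at 200 against 261 CPM (-0.38). NPM1 and HNRNPA1 had large absolute differences, 2606 against 3134 CPM (-0.27, adjusted p = 0.0148) and 2368 against 2779 CPM (-0.23, adjusted p = 0.0118), but both calls were lost without U2SURP knockdown library 1 (adjusted p = 0.0546 and 0.0604), that of NPM1 also without CHERP knockdown library 2 (0.0536) and that of HNRNPA1 without CHERP knockdown library 3 (0.05003).

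Lipid genes split in both directions. ACACA, acetyl-CoA carboxylase, was at 429.6, 425.5 and 436.7 CPM in U2SURP knockdown and at 318, 292.5 and 297.8 CPM in CHERP knockdown (0.51 ± 0.042, adjusted p = 9.702e-07). FADS2, the desaturase of polyunsaturated fatty acids, was at 22.1, 20.9 and 22.2 CPM against 38.8, 37.2 and 37.3 CPM (-0.80 ± 0.047, adjusted p = 4.701e-08). Both sets were apart, and of 22 fatty acid genes 7 were higher and 6 lower. For cholesterol 7 of 24 were higher and 10 lower, with the higher count at 4 without U2SURP knockdown library 3 or CHERP knockdown library 3. The lanosterol synthase LSS averaged 85.1 against 70.2 CPM (0.28). In glycolysis and hypoxia 6 of 33 were higher and 8 lower, 42.4% in all, under the 48.3% of protein-coding genes of at least 5 CPM. There were 3 higher without U2SURP knockdown library 3 or with offsets for GC content and length, and 5 lower without CHERP knockdown library 2. Of 10 alpha-arrestin and glucose sensor genes 4 were higher and 1 lower, among them TXNIP (131 ± 6.8 against 99.6 ± 10.6 CPM, 0.39) and ARRDC4 (120 ± 13.7 against 71.2 ± 8.41 CPM, 0.75). ARRDC3 varied 1.5-fold or more between libraries of 1 group, at 21.5, 34.7 and 32.7 CPM against 20.1, 31.1 and 33.9 CPM, with library 1 lowest in each, and was not called (0.06 ± 0.3).

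Since CHERP was described through calcium, genes of endoplasmic reticulum calcium handling were listed. Of 32 genes 9 were higher in U2SURP knockdown and 5 lower (9 lower with offsets for GC content and length), with a median of 0.022. The 43.8% called in all lay under the 48.3% of protein-coding genes of at least 5 CPM. RYR2, the ryanodine receptor that releases stored calcium, was at 55.07, 53.54 and 53.66 CPM in U2SURP knockdown and at 36.51, 32.97 and 33.68 CPM in CHERP knockdown (0.65 ± 0.047, adjusted p = 2.389e-07). PPP3CA, the catalytic subunit of calcineurin, was at 45.8, 50.81 and 44.84 CPM against 26.79, 28.89 and 29.07 CPM (0.74 ± 0.055, adjusted p = 3.31e-07). Both were apart between groups, as were most called genes. The calcium sensor STIM1 was higher (0.40) and the IP3 receptor ITPR3 lower (-0.19).

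Counts differed by annotated class, and no test was made between classes. U2SURP knockdown had 3786 higher and 2887 lower among 16015 protein-coding genes, whereas 198 of 2759 antisense genes were higher and 412 lower (median -0.11) and 221 of 2240 lincRNAs were higher and 332 lower (-0.09). Pseudogenes that arose by gene duplication had more higher calls, with 76 higher and 37 lower of 412 transcribed ones (0.06) and 50 higher and 32 lower of 442 others (0.07). At 2-fold or more, 28 antisense genes were higher and 102 lower. These classes lie at low levels, with a median of 0.272 CPM for antisense genes and 19.3 CPM for protein-coding genes. LIPE-AS1 was at 9.74, 11.02 and 11.3 CPM in U2SURP knockdown and at 4.02, 4.46 and 4.29 CPM in CHERP knockdown (1.32 ± 0.077, adjusted p = 4.153e-08), and LAMTOR5-AS1 at 13.6, 15.0 and 15.3 CPM against 26.7, 32.1 and 30.6 CPM (-1.03 ± 0.069, adjusted p = 1.389e-07). Each overlaps genes on the opposite strand. DGCR5 (9.44 against 4.12 CPM, 1.19) was higher, and the long non-coding RNA OLMALINC (13.4 against 25.5 CPM, -0.93) and the pseudogene TCAM1P (5.03 against 9.7 CPM, -0.95) were lower.

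Across 12809 protein-coding genes of at least 1 CPM the log2 fold change went with GC content only weakly (Spearman rho 0.136 across genes, which share libraries and are no replicates), and less with exonic length (0.029), exon number (0.035) and mean level (0.013). Among the 2562 genes lowest in GC 19.0% were higher and 24.5% lower (median -0.03), and among the 2562 highest 33.6% were higher and 16.4% lower (median 0.07). When GC content and length entered the fit as offsets, the balance of all calls turned from 4675 higher and 4282 lower to 4322 higher and 5432 lower. Genes with more than 20 exons were higher in 604 and lower in 333 of 1958 cases, and single-exon genes in 47 and 51 of 200.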

How the data were processed

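RNA of HEK293 cells was sequenced from poly(A)-selected, stranded libraries, per the labels' protocols. The authors deposited raw read counts per Ensembl gene for each library; HISAT2 2.0.5, SAMtools, HTSeq and GRCh38 are named in the submitters' processing notes without roles. The annotation release and whether the counting used strand are not stated in the sources used here, so reads of overlapping or antisense genes may be mixed. GENCODE 29 named 57041 of 60554 gene IDs. The 6 libraries (274301499 to 320986785 counts) were filtered with filterByExpr, scaled with TMM factors and tested by robust quasi-likelihood in edgeR 4.0.16 under R 4.3.3, with Benjamini-Hochberg adjustment over all 27621 genes tested and calls at an adjusted p under 0.05. SE was taken as the size of the log2 fold change over the root of its F statistic. The biological coefficient of variation was 0.08, and the median SE 0.115 log2 units (0.0509 at 5 CPM or more). CPM values use TMM factors of all 12 libraries. Replicates differed beyond sampling noise (chi-square per gene 11.7 to 46.5).

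The comparison, the 36 gene lists and the named genes were chosen with earlier results of these data known, and 13 further lists (SCF, kinases A and C, G protein subunits, purine, sphingolipid and gene families by symbol) after the results of this contrast; lists got no test. Named genes are the 3 targets, the 10 largest protein-coding differences per direction (at least 5 CPM, no overlap), 4 of other classes, 5 by CPM difference and up to 3 members per list and direction by p; other members were named after their values were seen. Some genes that these rules name, and 1 of the lists, are not reported here. On simulated counts for this comparison, over 27169 genes, changes of 0.5, 1 and 2 log2 units were given to 67, 67 and 66 genes, all of at least 1 CPM. Of these 88.1%, 100% and 100% were recovered, and 17 unchanged genes were called. Far fewer genes were changed than the 32.4% called in the data, so error rate and scaling at that share were not checked. Recovery of genes under 1 CPM was not simulated. Alternatives were DESeq2 1.42.0 (size factors, Wald test), no filter, all 4 groups in 1 fit, protein-coding genes alone, stricter thresholds, leaving out each library and offsets for GC content and length; leaving out library 1 of both knockdowns was added after seeing the data. Figures were drawn with matplotlib 3.10.9.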

Additional observations from a re-analysis of the deposited data

How the results depend on the processing

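No paired analysis was possible because replicate numbers follow accession order and the labels give none. Genes called numbered 8957, and between 6760 and 9465 when 1 library was left out. At an adjusted p under 0.01 5851 were called (2628 lower, and 346 lower at 2-fold or more), and with glmTreat against a 1.5-fold minimum 420 (222 higher and 198 lower, 146 and 161 at 2-fold or more). With protein-coding genes alone 203 genes were at least 2-fold higher and 167 lower. List medians moved with offsets for GC content and length: U2 snRNP -0.048, partners 0.064, nonsense-mediated decay 0.019, calcium handling -0.019, heat shock -0.216, cholesterol -0.021, oxidative phosphorylation -0.043, immediate-early 0.436, neuronal 0.197, REST 0.003, matrix 0.199, epithelial markers -0.173 and HEK293 markers -0.12. With protein-coding genes alone they were 0.064 for partners, 0.01 for nonsense-mediated decay, 0.005 for cholesterol, -0.035 for oxidative phosphorylation and -0.119 for HEK293 markers. Over fits without single libraries, or without library 1 of both knockdowns, medians ran from 0.077 to 0.101 for partners, -0.018 to 0.05 for hnRNP genes, 0.015 to 0.032 for nonsense-mediated decay, 0.069 to 0.156 for alpha-arrestins, -0.216 to -0.146 for heat shock, 0.032 to 0.072 for fatty acids, 0.2 to 0.394 for CIC and ERK feedback, 0.418 to 0.525 for immediate-early genes, -0.135 to -0.046 for cohesin, 0.226 to 0.419 for neuronal genes, 0.035 to 0.078 for REST, -0.151 to 0.02 for epithelial markers and -0.11 to -0.081 for HEK293 markers. The causes were not tested. RBM17, not called in any of these fits, ran from -0.03085 to 0.0182 over fits without single libraries, the last without CHERP knockdown library 3. The pseudogene DHFRP1 was called lower in U2SURP knockdown (14.8 against 29.6 CPM, -1.01, adjusted p = 0.0341) but lost its call under 7 alternatives, its 3 CHERP knockdown libraries spreading from 20.6 to 37.1 CPM. Low counts limit precision: the median SE was 0.115 log2 units over all genes and 0.0509 at 5 CPM or more.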

Other observations

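Members of other gene families were called as well. ALDH8A1, an aldehyde dehydrogenase of the kynurenine pathway, was at 3.65, 3.01 and 3.22 CPM in U2SURP knockdown and at 1.26, 1.37 and 1.31 CPM in CHERP knockdown (1.32 ± 0.1, adjusted p = 5.128e-07), with both groups far below the control mean of 13.1 CPM. Solute carriers were higher in 73 and lower in 54 of 321 cases, 39.6% in all. Of the 197 at 5 CPM or more 95 were called, near the 48.3% of protein-coding genes at that level. SLC1A5, the glutamine transporter, stood at 185.7, 187.6 and 195.8 CPM in U2SURP knockdown against 270.8, 269.1 and 274.9 CPM in CHERP knockdown (-0.52 ± 0.039), and the zinc importer SLC39A10 at 110 against 71.5 CPM (0.61 ± 0.043). Among 475 ZNF zinc finger genes 94 were higher and 65 lower, 33.5% in all; of the 371 at 5 CPM or more 133 were called, a smaller share than the 48.3% of protein-coding genes at that level. ZNF331 was at 75.7 against 41.9 CPM (0.85 ± 0.061). Interferon response genes, many at low levels, were higher in 4 and lower in 6 of 30 tested, 33.3% beside 32.4% of all genes. The lower count was 3 without U2SURP knockdown library 1 or 3, and the higher count 2 without U2SURP knockdown library 2. IFI44L had the largest fold (0.154 against 0.0558 CPM, 1.45 ± 0.38, adjusted p = 0.00858), a call lost without that library (adjusted p = 0.0581). ISG20, an exonuclease of that response, was at 3.67, 4.15 and 4.28 CPM against 7.28, 8.14 and 7.81 CPM (-0.94 ± 0.08).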
